A study of Homo sapiens with 16 samples.

Results

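Cytosolic ribosomal protein mRNAs were followed across 16 sequencing libraries of RNA that was pulled down together with RISC, the complex through which microRNAs (miRNAs) silence mRNAs. The genes were chosen by symbol alone: names of the RPL and RPS series, the stalk proteins RPLP0, RPLP1 and RPLP2, and RPSA, leaving out the RPS6K kinases. They numbered 88 of the 19077 genes in the deposited count table, 53 of the large and 35 of the small subunit. Of these, 2 lie on the Y chromosome. They were counted and tested, but their levels are not given. Whether the reads counted on them came from these genes or from similar copies was not tested. All libraries came from HEK 293, a transformed human embryonic kidney line, by the RISC-trap method, in which dominant-negative GW182, encoded by TNRC6A, keeps targets bound to the complex. The groups were mir124-3p Illumina (3 libraries), mir124-3p Solid (1 library), and 2 libraries each of mir1180-3p, mir1260a-5p and mir550-3p, as well as of mir1271-5p, mir1301-3p and mir3613-5p. No library without a miRNA was labelled, so each of these 6 miRNAs was compared with the other 5 together, and the comparisons share their libraries. The descriptions of both mir550-3p libraries and of mir1301-3p replicate 2 hold the letters bio with a number, and separate cultures are not otherwise stated, so the tests measure only the spread between these libraries, which may be technical. All 16 labels name RNA extraction with Trizol and a SOLiD kit for total RNA. The sequencer used for the 6 miRNAs is not stated there, and these 12 libraries were treated here as one platform with mir124-3p Solid.

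A ribosome has a large subunit, which joins amino acids, and a small subunit, which reads the mRNA, each built from ribosomal RNA and many proteins made in matched amounts. In mammals the mRNAs of these proteins typically open with a C and a run of pyrimidines at the 5′ end, the terminal oligopyrimidine (TOP) tract, through which the mTOR pathway controls their translation together with that of several translation factors. A miRNA guides RISC to mRNAs mainly through its seed, bases 2 to 8, and bound mRNAs are usually destabilised and less translated.

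The mature miRNAs are shown because each comparison is a comparison between seeds. Sequences are from RefSeq (GRCh38.p14), 5′ to 3′, with the seed in capitals, and all 6 seeds differ. The labels write mir1260a-5p, and the RefSeq entry it was matched to, hsa-miR-1260a, carries no arm. The library descriptions of mir550-3p name 550a, and hsa-miR-550a-3p has identical copies at chr7:29680748-29680769 (minus strand) and chr7:32733041-32733062 (plus strand).
hsa-miR-1180-3p (chr17:19344513-19344534, minus strand): uUUCCGGCucgcgugggugugu
hsa-miR-1260a (chr14:77266231-77266248, plus strand): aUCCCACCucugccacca
hsa-miR-1271-5p (chr5:176367960-176367981, plus strand): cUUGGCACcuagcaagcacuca
hsa-miR-1301-3p (chr2:25328651-25328674, minus strand): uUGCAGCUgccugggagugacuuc
hsa-miR-3613-5p (chr13:49996465-49996486, minus strand): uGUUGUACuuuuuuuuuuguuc
hsa-miR-550a-3p: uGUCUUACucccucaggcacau

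The genes share a feature the symbol rule did not use. A tract, searched as a C at an annotated transcription start followed by at least 4 more C or T on the transcribed strand, stood at 1 or more starts of 48 of the 70 genes with a RefSeq promoter entry (68.6%), against 825 of the 13528 other genes with one (6.1%). Per start rather than per gene, 48 of 86 starts of the ribosomal protein genes held it (55.8%), against 1429 of the 35116 starts of all genes together (4.07%). Among 6 paralogs with an entry only RPL22L1 held it. A match describes these letters at the annotated start and does not show translational control. Start regions of some genes on which results below turn are printed as 30 bases (20 before the start and 10 from it), with the tract in capitals.
RPL14 (chr3:40457319-40457348, plus strand): gggttgggcgggtcttcttcCTTCTCgcct
RPL21 (chr13:27251538-27251567, plus strand): cgccgcggccccgcctctttCCTTTCggcc
RPL36A (chrX:101390991-101391020, plus strand): ttccgtttgcctcgcggtttCTTTCTTTCC
RPS27 (chr1:153990742-153990771, plus strand): gcaggatttccgctttcgctCCTTTCCggc
RPS14 (chr5:150449730-150449759, minus strand): tcgctccgccccctcccactCTCTCTTTCC
RPS3 (chr11:75399498-75399527, plus strand): cttccgcccgcgagccacttCCTTTCCTTT
RPL19 (chr17:39200263-39200292, plus strand): gggtttgggctctccccttcgcagataatg
RPL27 (chr17:42998399-42998428, plus strand): cctcaccggggtgaaaggttagcggaagtg
RPL7L1 (chr6:42879596-42879625, plus strand): cgcgccggaagtgcggcgccgtagctagga
RPL10L (chr14:46651772-46651801, minus strand): gcgcgcaggcgtagttaagagagcgcattt
The last 4 held no tract by this definition at these starts. RPL19 has 2 annotated starts, of which the first is shown, and neither held it. RPL4, whose start is not printed, has 1 annotated start, which held no tract.

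Library totals lay between 7612758 and 26527365 counts, and 3 counts, the limit set by a count of 0, corresponded to 0.113 to 0.394 CPM, counts scaled to the library total. CPM below are further scaled by the trimmed mean of M values over all 16 libraries. All 8 HEK 293 markers averaged over 1 CPM, with a summed level of 1150 to 2106 CPM per library. The 5 blood markers summed to 1.98 to 12.04 CPM and the 2 liver markers to 0.894 to 6.93 CPM. The 5 fibroblast markers summed to 1.98 to 19.6 CPM outside mir1301-3p. TNRC6A took 4.003%, 1.07% and 3.97% of counts in mir124-3p Illumina replicates 1, 2 and 3 and 5.11% in mir124-3p Solid, against 0.665% to 1.49% in the other 12 libraries.

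Ribosomal protein mRNAs were measured in every library, and 83 of the 88 genes had a count in each Illumina library. CPM are not corrected for transcript length, so no order of abundance between genes is drawn from them. Over the 12 libraries of the 6 miRNAs the highest mean CPM belonged to RPL19, RPL27, RPS20, RPL15 and RPS6. The means of RPL19 (10736, against a median of 2084) and RPS20 (5666, against 1588) lie far above their medians through the mir1180-3p libraries described below. At the other end, RPL3L, RPL10L and RPS26 were among the 5 lowest of the genes past the filter. RPS6, the small subunit protein phosphorylated downstream of mTOR, lay between 1484 and 5094 CPM with a median of 2638. RPL15, of the large subunit, lay between 3497 and 7319 CPM with a median of 5351. The 3 steadiest genes, by their range of log2 CPM over the 12 libraries, belonged to the small subunit: RPS15A (0.72), RPS13 (0.84) and RPSA (0.88, the protein also known as the laminin receptor). The widest ranges were those of RPL19 (5.50) and RPS20 (5.19).

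The 88 genes took 18.4%, 24.8% and 19.4% of all counts in the mir124-3p Illumina libraries and 7.18% in mir124-3p Solid. Their share was 16.3% and 15.7% in mir1180-3p, against 6.42% to 11.9% in the 10 libraries of the other 5 miRNAs (mean 9.60% ± 2.16, SD). The high share in mir1180-3p lay in 3 genes: RPL19, RPS20 and RPL14 together took 8.36% (95% Wilson interval 8.35% to 8.38%) and 8.51% (8.50% to 8.53%) there, against 0.279% to 0.699% in the 10 libraries. Without these 3 the mir1180-3p libraries stood at 7.98% and 7.20%, inside the 6.13% to 11.4% of the 10. These intervals cover counting error only. A share can rise because these mRNAs were recovered more or because others were recovered less, and the counts cannot tell these apart.

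**Figure D1:**
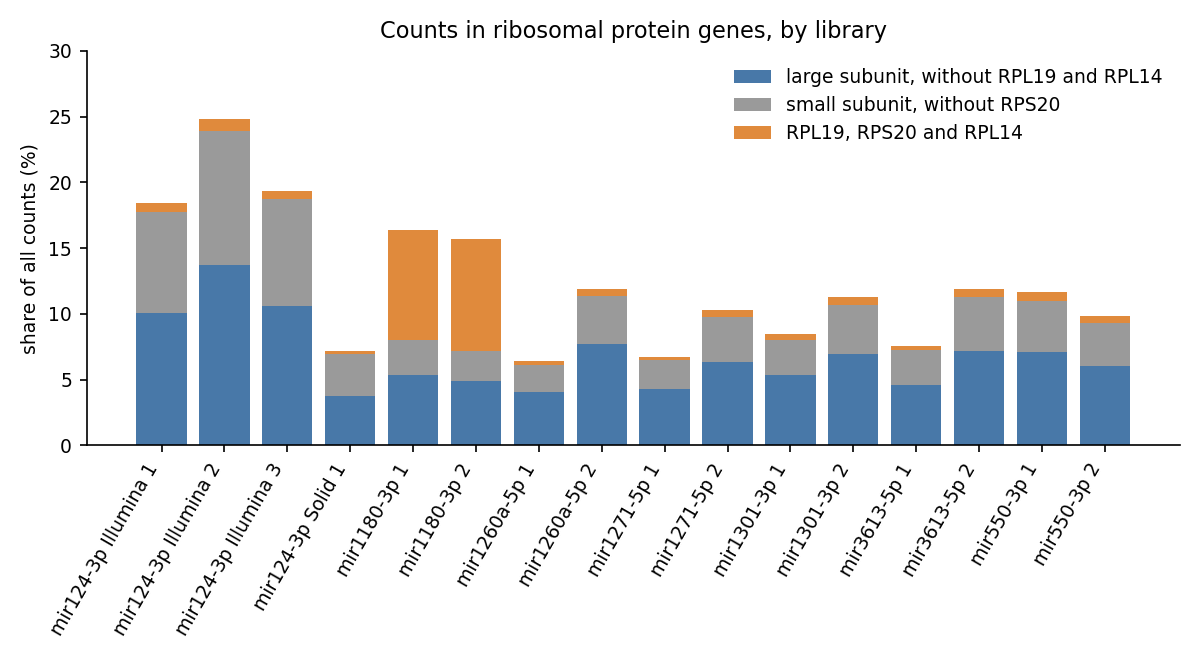
Share of all counts (%) taken by ribosomal protein genes in each of the 16 libraries, stacked as large subunit genes without RPL19 and RPL14, small subunit genes without RPS20, and these 3 genes together. The mir1180-3p bars reach 16.3% and 15.7% through the 3 genes, which take 8.36% and 8.51%, while the Illumina bars reach 18.4% to 24.8% with 3-gene parts that average 0.779%.

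RPL19, RPS20 and RPL14 rose steeply with mir1180-3p while most other ribosomal protein mRNAs did not pass the test. RPL19, a large subunit protein that reaches across to the small subunit, had 56914 and 52281 CPM in mir1180-3p, against a lowest of 1259.9, a median of 1877 and a highest of 3117 CPM in the other 10 libraries. RPS20, of the head of the small subunit, had 23826 and 28629 CPM in mir1180-3p, against 782, 1485 and 3007 CPM in the 10. RPL14, of the large subunit, had 9779 and 9572 CPM in mir1180-3p, against 463, 1016 and 1359 CPM. For each of the 3 genes both mir1180-3p libraries stood above all 10 others, with no overlap. Called genes were picked by a test on these same libraries, so such separation is no separate support for them. The share of all genes that separated this way was not computed, here or for the other 5 miRNAs. Their log2 fold changes were 4.70 ± 0.25 (SE), 4.03 ± 0.27 and 3.30 ± 0.32 (edgeR quasi-likelihood test, Benjamini-Hochberg adjusted p = 5.2e-09, 8.39e-08 and 6.45e-06).

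A further 3 large subunit mRNAs rose by smaller amounts. RPL4, whose protein extends into the peptide exit tunnel, had 1669 and 2387 CPM in mir1180-3p, against 452, 572 and 975 CPM (lowest, median, highest) in the 10 libraries (log2 fold change 1.63 ± 0.24). RPL13 had 1471 and 2104 CPM in mir1180-3p, against 408, 681 and 880 CPM (1.35 ± 0.31). RPL21 had 444 and 554 CPM in mir1180-3p, against 127, 200.1 and 308 CPM (1.21 ± 0.30). The 1 gene that fell was RPL7L1, a paralog of RPL7 found in precursors of the large subunit, with 10.5 and 14.4 CPM in mir1180-3p, against 20.5, 30.1 and 54.2 CPM (−1.47 ± 0.35). In all 4 of these genes too the groups did not overlap. The edgeR adjusted p were 0.000433 for RPL4, 0.0268 for RPL13, 0.0449 for RPL21 and 0.0311 for RPL7L1.

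In all, 6 rose and 1 fell of the 87 genes tested. Of all genes 2.07% were called in this comparison, 1.92% higher and 0.153% lower. The median log2 fold change of the 87 was −0.13, and that of all genes −0.07. With upper-quartile scaling the median of all genes moved to 0.09 and that of the ribosomal protein genes to 0.01, and 7 rose and none fell. By subunit, 5 of 53 large subunit genes rose and 1 fell, and 1 of 34 small subunit genes rose. RPL19, RPS20 and RPL14 were called under every setting tried. The count of calls fell to 3 without mir1180-3p replicate 2, and to 4 without mir1180-3p replicate 1 or without mir550-3p replicate 2. RPL13, RPL21 and RPL7L1 lost their calls without either mir1180-3p library, and RPL4 without replicate 2. Over all 16 alternatives RPL21 was not called in 9, RPL7L1 in 5, RPL13 in 3 and RPL4 in 1.

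**Figure D2:**
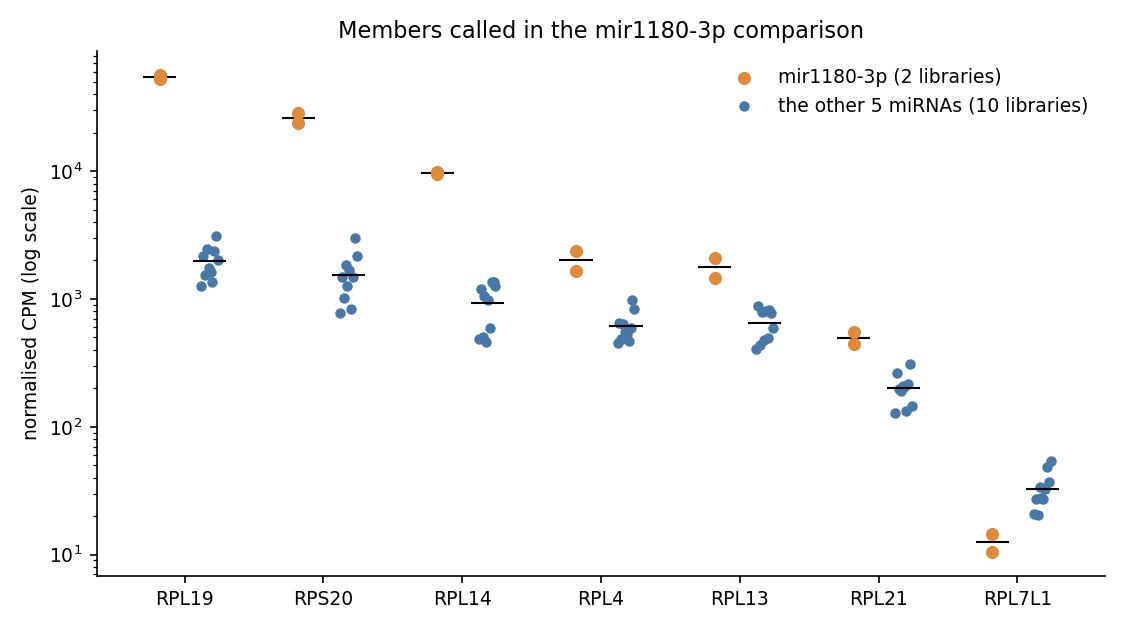
Normalised CPM (log scale) of the 7 ribosomal protein genes called for mir1180-3p, with 1 point per library and a line at each group mean. The 2 mir1180-3p points lie above the 10 others for the first 6 genes, most widely for RPL19 (56914 and 52281 against at most 3117 CPM), and below them for RPL7L1.

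With mir1260a-5p and mir1271-5p a single ribosomal protein mRNA rose in each comparison. RPL36A, a large subunit protein at the site from which spent tRNA leaves, had 539 and 877 CPM in mir1260a-5p, against 134, 244 and 321 CPM (lowest, median, highest) in the other 10 libraries. The groups did not overlap, and the log2 fold change was 1.62 ± 0.26 (edgeR adjusted p = 0.00781). It was the 1 call of 87 genes, against 0.215% of all genes. Its autosomal paralog RPL36AL had 278 and 343 CPM in mir1260a-5p, against 103, 141 and 162 CPM in the 10, again with no overlap, and missed the threshold (1.14 ± 0.24, edgeR adjusted p = 0.0542). Without mir1260a-5p replicate 2 the fold of RPL36A was 1.17 and no longer called, without mir1271-5p replicate 1 there were 2 calls, and DESeq2 called 2 genes higher and 2 lower. The median over the 87 genes was −0.23, and over all genes 0.02.

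RPS27, a zinc-finger protein of the small subunit, had 202 and 556 CPM in mir1271-5p, against 75.5, 135 and 225 CPM in the other 10 libraries. Replicate 1 of mir1271-5p lay inside the range of the 10, so the groups overlapped and replicate 2 carried most of the difference. The log2 fold change was 1.59 ± 0.31 (edgeR adjusted p = 0.0183), the 1 call of 87 genes against 0.606% of all genes. Without mir1271-5p replicate 2 it was 0.74, and the call also ended without mir1180-3p replicate 2 (1.58), without mir550-3p replicate 1 (1.55) and with upper-quartile scaling (1.43). There were 2 calls without mir1260a-5p replicate 2 or mir1301-3p replicate 2. The median over the 87 genes was −0.11, and over all genes 0.05.

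With mir550-3p the ribosomal protein mRNAs leaned higher, and the 2 that passed the test were both paralogs. RPL3L, the form of RPL3 typical of striated muscle, had 2.22 and 3.89 CPM in mir550-3p, against 0.304, 0.802 and 2.15 CPM in the other 10 libraries (log2 fold change 1.83 ± 0.41, edgeR adjusted p = 0.0309). RPL22L1, the paralog of RPL22, had 674 and 496 CPM in mir550-3p, against 217, 291 and 387 CPM (1.005 ± 0.24, edgeR adjusted p = 0.0425). Neither gene's groups overlapped, though RPL3L had 239 counts over all 16 libraries together. The share called, 2 of 87 genes, was near the 1.51% of all genes (1.2% higher). Of the 87 folds 64 were above 0, beside 8235 of 17658 among all genes, with medians of 0.31 and −0.05. With upper-quartile scaling these medians were 0.17 and −0.17 and no gene was called. The lean was not particular to these genes, since 2 other gene lists described further below also leaned higher. The count of calls was 0 without either mir550-3p library, either mir1180-3p library or either mir1301-3p library, 1 without mir1260a-5p replicate 1 or either mir3613-5p library, and 6 without mir1260a-5p replicate 2.

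With mir3613-5p no ribosomal protein gene of 87 was called by edgeR, against 0.0906% of all genes. At an unadjusted p under 0.05 there were 8 of 87, beside 2481 of 17658 among all genes, and DESeq2 called 1, which was lower. The median log2 fold change of the 87 was 0.05, and −0.14 with upper-quartile scaling, which moved the median of all genes to −0.18.

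With mir1301-3p 13 ribosomal protein genes rose and 2 fell of 87, a share of 17.2% that was near the 15.9% called among all genes (11.5% higher and 4.39% lower), so the count alone is no result about ribosomal proteins. With upper-quartile scaling 23 rose and none fell, and DESeq2 called 9 higher and 6 lower. The median over the 87 genes was −0.17, against −0.02 over all genes, and upper-quartile scaling turned them to 0.22 and 0.38. Large and small subunit genes were both among the risers. Of the risers 1 is Y-linked, and the source of its reads was not tested. RPL10L, an autosomal copy of RPL10 that in mouse serves male germ cells, had 4.61 and 5.70 CPM in mir1301-3p, against 0.675, 1.21 and 3.38 CPM (lowest, median, highest) in the other 10 libraries (log2 fold change 1.82 ± 0.41, edgeR adjusted p = 0.0152). RPL10 itself had 909 and 813 CPM in mir1301-3p, against 277, 382 and 552 CPM (1.09 ± 0.28, edgeR adjusted p = 0.0223). RPL10L and RPL10 thus both stood apart without overlap, and the split of reads between such similar copies is uncertain.

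RPL26L1, the paralog of RPL26, had 66.3 and 39.8 CPM in mir1301-3p, against 13.3, 25.4 and 33.7 CPM (1.09 ± 0.31, edgeR adjusted p = 0.0312). Its groups did not overlap. RPL41, the shortest of these proteins, had 927 and 2149 CPM in mir1301-3p, against 403, 667 and 1429 CPM (1.19 ± 0.35, edgeR adjusted p = 0.0332). RPL9 had 798 and 406 CPM in mir1301-3p, against 164, 255 and 587 CPM (1.14 ± 0.26, edgeR adjusted p = 0.0154). RPL41 and RPL9 each had 1 library inside the range of the other 10: without mir1301-3p replicate 2 the fold of RPL41 was 0.36, and without replicate 1 that of RPL9 was 0.65. The remaining named risers, RPL35A, RPS3A, RPS28, RPS7 and RPL6, had log2 fold changes of 0.98, 0.95, 0.94, 0.84 and 0.84 (edgeR adjusted p = 0.0413, 0.0365, 0.0464, 0.0496 and 0.0403). RPS28, RPS7 and RPL6 were not called by DESeq2, and RPS28 and RPS7 not without the filter on low counts.

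The 2 that fell were RPL12, at the base of the stalk, with 321 and 544 CPM in mir1301-3p, against 462, 915 and 1509.8 CPM (−1.04 ± 0.35, edgeR adjusted p = 0.0486), and RPL19. Replicate 2 of mir1301-3p lay inside the range of the 10 for RPL12, and the fold was −1.57 without it and −0.67 without replicate 1. RPL19 had 1746 and 1611 CPM in mir1301-3p, against 1259.9, 2263 and 56914 CPM (−1.20 ± 0.34, edgeR adjusted p = 0.0301). Its reference holds the mir1180-3p libraries, and without them the fold was −0.31 and not called. The count for mir1301-3p fell to 0 without its replicate 1 and to 1 without its replicate 2; it was 7 and 8 without mir1180-3p replicates 1 and 2, 9 without mir3613-5p replicate 1, and 5 and 6 without mir550-3p replicates 1 and 2. The 5 fibroblast markers, of which DCN and LUM averaged under 1 CPM, summed to 47.7 and 141 CPM in mir1301-3p, against 6.39 to 19.6 CPM in the other 10 libraries; their part in the result was not tested.

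**Figure D3:**
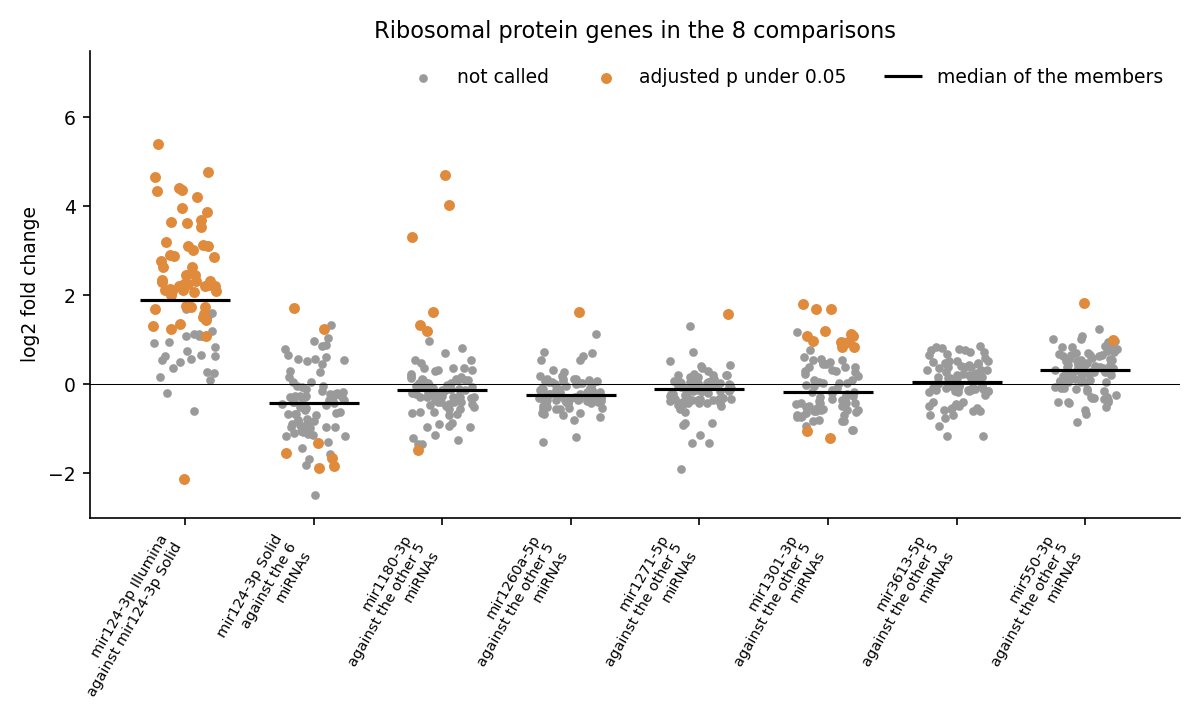
Log2 fold changes of ribosomal protein genes in the 8 comparisons, with 1 point per gene (Y-linked genes and folds of genes with 0 counts on Illumina are not drawn), called genes in orange and the median over the tested genes as a line. For mir1180-3p 3 points lie far above the rest while the median is −0.13, and for Illumina against Solid nearly the whole set lies above 0, with a median of 1.89.

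Within a miRNA, the 2 libraries differed in how much ribosomal protein mRNA they held, and most of the set moved together. For mir1260a-5p 81 of 87 genes were higher in replicate 2 than in replicate 1 (median log2 difference 0.78), against 49.4% of all genes. For mir3613-5p 82 of 87 were higher in replicate 2 (median 0.63), against 53.8% of all genes. For mir1271-5p 71 were higher (median 0.46, all genes 52.1%), and for mir1301-3p 58 (median 0.30, all genes 50.5%). The direction was opposite for the other 2 miRNAs, with replicates numbered by the library titles. In the descriptions the sample numbers of mir1180-3p ran against this order, and those of mir1260a-5p, mir1271-5p and mir3613-5p ran with it. The sign for mir1180-3p depends on which of its libraries is called replicate 1. For mir1180-3p only 19 of 87 were higher in replicate 2 (median −0.21, all genes 50.8%), and for mir550-3p 23 (median −0.19, all genes 56.8%). Unscaled shares of counts moved the same way in all 6 pairs. Replicate 2 was over 2-fold higher for 30 genes in mir1260a-5p and 22 in mir1301-3p, against 10.7% and 7.95% of all genes. In mir1271-5p 10 genes were over 2-fold higher and in mir3613-5p 5, against 17.2% and 13% of all genes. In mir550-3p 1 was and in mir1180-3p none, against 8.6% and 7.96%. No test was made on these pairs, which have 1 library on each side.

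A further 2 gene lists were followed beside them. The other TOP mRNAs, 29 genes for translation factors and the like, had medians on the same side of 0 as the ribosomal protein genes in all 6 pairs: −0.26 for mir1180-3p and −0.21 for mir550-3p, 0.59 for mir1260a-5p, 0.37 for mir1271-5p, 0.22 for mir1301-3p and 0.46 for mir3613-5p. The 41 factors that assemble and export ribosomal subunits in the nucleus, none of which is part of a mature ribosome, had medians on the opposite side in all 6: 0.18 and 0.28 for mir1180-3p and mir550-3p, and −0.31, −0.45, −0.22 and −0.41 for the other 4. A tract by the definition above stood at 16 of 18 other TOP genes with an entry (88.9%) and at 2 of 32 assembly factors (6.25%). The first list was chosen as mRNAs that carry such a tract. Its high share follows from that choice and is no separate result. The replicate with more ribosomal protein mRNA had the larger library total for mir1180-3p and mir1301-3p and the smaller for the other 4. The part of library totals in these differences was not tested. Transcript length was not analysed here.

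**Figure D4:**
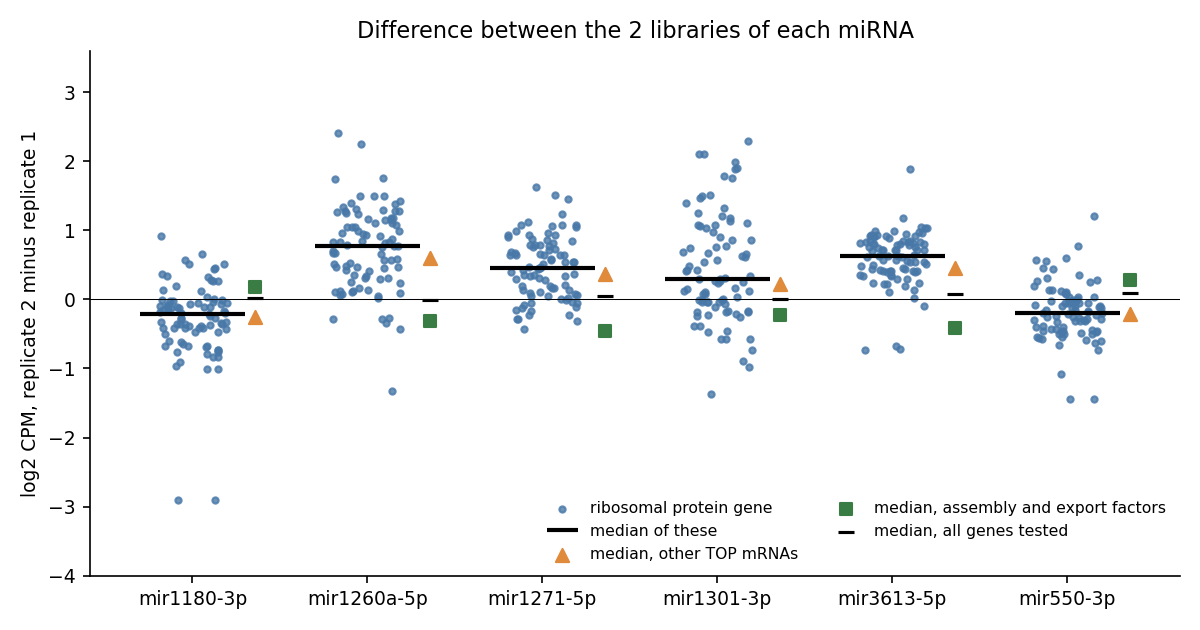
Log2 CPM of replicate 2 minus replicate 1 for each miRNA, with 1 point per ribosomal protein gene and a line at their median; triangles, squares and short dashes mark the medians of other TOP mRNAs, of assembly and export factors, and of all genes tested. The ribosomal protein median lies between −0.21 and 0.78, the triangles lie on its side of 0 and the squares on the other side for all 6 miRNAs.

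The mir124-3p Solid library, set against the mean of the 6 miRNAs, had 2 ribosomal protein genes higher and 5 lower of 88, near the 8.89% of all genes called (7.31% higher and 1.58% lower). With upper-quartile scaling 1 was higher and 7 lower. As a group has 1 library here, it was assumed to vary like the others. RPS14, the small subunit gene lost in the 5q- syndrome, had 1225 CPM in mir124-3p Solid, against 165, 338 and 719 CPM (lowest, median, highest) in the 12 libraries (log2 fold change 1.71 ± 0.40, edgeR adjusted p = 0.0131). RPS3, at the channel through which mRNA enters, had 2740 CPM in mir124-3p Solid, against 675, 1051 and 1589 CPM (1.24 ± 0.38, edgeR adjusted p = 0.0473). Both stood above all 12 libraries, as did 9 of the 86 genes not on the Y chromosome and 20.8% of all genes.

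RPL27, a large subunit gene, had 1972 CPM in mir124-3p Solid, against 4340, 6078 and 9998 CPM in the 12 (−1.83 ± 0.44, edgeR adjusted p = 0.0151). RPS13 had 501 CPM in mir124-3p Solid, against 865, 1085 and 1546 CPM (−1.32 ± 0.38, edgeR adjusted p = 0.0377), and RPL36A had 103 CPM, against 134, 255 and 877 CPM (−1.55 ± 0.45, edgeR adjusted p = 0.0375). These 3 stood below all 12 libraries, as did 20 of the 86 genes not on the Y chromosome and 10.9% of all genes. RPS20 had 704 CPM in mir124-3p Solid, against 782, 1588 and 28629 CPM (−1.89 ± 0.52, edgeR adjusted p = 0.03), and RPL19 had 1178 CPM, against 1259.9, 2084 and 56914 CPM (−1.65 ± 0.49, edgeR adjusted p = 0.0412). Without the mir1180-3p libraries in the reference these 2 folds were −1.15 and −0.80 and not called. RPS3 (1.28), RPS13 (−1.24) and RPL36A (−1.52) also lost their calls there, and the count was 3. RPL27 and RPS14 were called under every setting tried. The count was 2 without mir1180-3p replicate 2 or mir550-3p replicate 1, 4 without mir550-3p replicate 2, and 19 with DESeq2.

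For RPS14 and RPL27 the 3 Illumina libraries of the same miRNA stood on the same side of the 12 as the Solid library. RPS14 had 2169, 3027 and 2533 CPM on Illumina, and RPL27 had 2007, 3104 and 1901 CPM. RPS3, with 4874, 6546 and 5897 CPM, also stood above the 12. The other 4 genes that fell in the Solid library were not below the 12 on Illumina: RPS13 had 1497, 2087 and 1507 CPM, RPS20 1338, 2212 and 1289 CPM and RPL19 4356, 6699 and 4213 CPM, and RPL36A, with the values given below for the platforms, stood above all 12. RPL27 was the only one of the 86 genes not on the Y chromosome to lie below all 12 libraries in all 4 libraries of mir124-3p, against 8.08% of all genes. Above all 12 in all 4 were 9 genes (RPS15A, RPSA, RPS26, RPS3, RPL18, RPS6, RPL11, RPS25 and RPS14), near the 10.6% of all genes. The Illumina libraries may differ from the 12 in platform as well as in miRNA, and these cannot be told apart there.

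Between platforms, with the same miRNA, most ribosomal protein mRNAs took a larger part of the Illumina libraries. Of 88 genes 55 were higher and 5 lower on Illumina than on Solid, against 2.37% of all genes called higher and 19.5% called lower, or 21.9% in either direction. The median log2 fold change of the 88 was 1.89, and that of all genes −0.39. Both subunits moved: 35 of 53 large and 20 of 35 small subunit genes were higher. RPL36A had 3478, 5825 and 3788 CPM on Illumina, against 103 CPM on Solid (log2 fold change 5.41 ± 0.58). RPS3A had 4492, 7086 and 4865 CPM on Illumina, against 203 CPM on Solid (4.76 ± 0.61). RPS7 had 2693, 4517 and 2780.5 CPM on Illumina, against 132 CPM on Solid (4.66 ± 0.58). RPL21, RPS27, RPS28 and RPL41 followed, with 4.41, 4.38, 4.35 and 4.22. RPS26, a small subunit protein beside the channel through which mRNA leaves, had 252, 421 and 228 CPM on Illumina, against 19.3 CPM on Solid (3.96 ± 0.50). These 8 were called under every setting tried.

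Other members had folds close to their errors. RPL27 had a log2 fold change of 0.25 ± 0.42, RPL28 of −0.19 ± 0.60, RPS21 of −0.59 ± 0.36 and the paralogs RPL22L1 and RPL39L of 0.11 ± 0.39 and 0.17 ± 0.36; none of these was called, which does not show that they were equal. Paralogs were among the 5 genes lower on Illumina. RPL10L had 0 counts in all 3 Illumina libraries and 37 counts on Solid, at least 21.5-fold lower (against 3 counts per Illumina library). Fewer genes of any kind had a count on Illumina, with 15663, 15390 and 15772 in replicates 1, 2 and 3, against 18553 on Solid. RPL3L had 0.719, 0.128 and 0.230 CPM on Illumina, against 1.59 CPM on Solid (−2.13 ± 0.75, edgeR adjusted p = 0.0471). That call did not hold in 13 of 19 alternatives, among them upper-quartile scaling (edgeR adjusted p = 0.0764), DESeq2 (DESeq2 adjusted p = 0.218) and leaving out Illumina replicate 2 (−1.47). Of the 5, 1 is Y-linked. Ribosomal protein genes have many processed copies in the genome, and how reads that match several places were counted remains unstated in the sources used here, so values of near-identical copies are uncertain on both platforms.

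**Figure D5:**
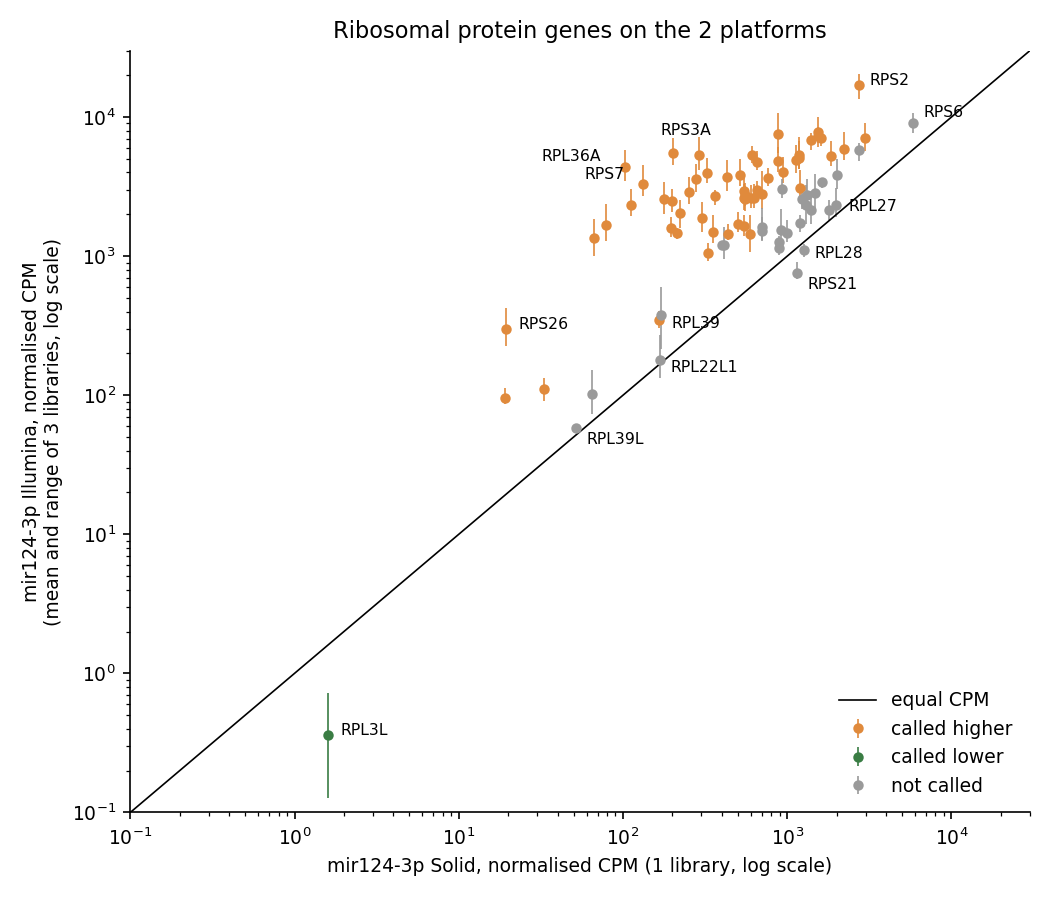
Normalised CPM of each ribosomal protein gene with a count in every Illumina library, mir124-3p Illumina (mean of 3 libraries, bars from lowest to highest, log scale) against mir124-3p Solid (1 library, log scale), with a line of equal CPM. Most points lie above the line, as RPL36A does with 3478 to 5825 against 103 CPM, while RPL27, RPL28, RPS21 and RPL39L lie near it.

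Of the remaining paralogs, RPS4X, the X-linked gene of a small subunit protein, had 4905, 7816 and 5093 CPM on Illumina, against 2204 CPM on Solid (1.44 ± 0.44, edgeR adjusted p = 0.0226), and RPL36AL had 307, 404 and 339.9 CPM, against 166 CPM (1.09 ± 0.35, edgeR adjusted p = 0.0305). RPL39L and RPS27L were called in none of the 8 comparisons and were steady between libraries, with 42.4 to 84.0 and 57.9 to 117 CPM over the 12 libraries.

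The other TOP mRNAs also ran higher on Illumina, with 13 higher and 1 lower of 29 and a median of 1.16, led by HNRNPA1 (4.06), NPM1 (3.98) and EEF1A1 (3.13). Of the 41 assembly and export factors none was higher and 1, TSR1, was lower (−1.32), with a median of −0.03 and 3 at an unadjusted p under 0.05. The Illumina libraries also differed among themselves. Replicate 2 was the highest of the 3 for 82 of the 88 ribosomal protein genes (93.2%) and 25 of the 29 other TOP mRNAs (86.2%), against 31.4% of all genes and 11 of the 41 assembly factors (26.8%). The median log2 ratio of replicate 2 to the mean of replicates 1 and 3 was 0.56 for the ribosomal protein genes and −0.10 for all genes. TNRC6A moved the other way, with 1.07% of counts in replicate 2 and 4.003% and 3.97% in replicates 1 and 3; its part in the difference was not tested.

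The same lists were counted in mir550-3p, mir1180-3p and mir1301-3p, with no test between lists. In mir550-3p 32 of the 41 assembly factors had a fold above 0 (median 0.50), and 17 of the 29 other TOP mRNAs did (median 0.26). Of these EIF3M alone was called (1.27). In mir1180-3p, where 2.07% of all genes were called, 2 of 41 assembly factors rose, DCAF13 (4.32 ± 0.24) and DNTTIP2 (3.54 ± 0.28), which both act on the small subunit precursor, and none of the other TOP mRNAs was called. In mir1301-3p, where 4.39% of all genes were called lower, 9 of the 41 assembly factors fell, among them WDR12 (−1.34) and PES1 (−1.11) of the complex that processes large subunit RNA, and none rose, with a median of −0.64; of the other TOP mRNAs BTF3 rose (1.36). DCAF13 (−1.69) and DNTTIP2 (−1.86) were also among those 9, and their reference holds the mir1180-3p libraries. FAU, which encodes a ribosomal protein fused to a ubiquitin-like sequence and falls outside the symbol rule, was called in none of the 8 comparisons by edgeR.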

How the data were processed

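RNA recovered by RISC-trap from HEK 293 cells was measured in 16 libraries. The authors deposited a table of raw counts per gene; TopHat2 and hg19 are named in the submitters' processing notes, with the counting tool, its strand setting and its treatment of multiply matching reads not given in the sources used here. Symbols were those of the table, and 87 of the 88 genes matched RefSeq by accession. Differences in counts were tested with edgeR 4.0.16 under R 4.3.3 (TMM scaling, filterByExpr, robust quasi-likelihood F tests, two-sided; limma 3.58.1), fitted on 12, 13 or 16 libraries and adjusted over all genes tested; a gene was called at an adjusted p under 0.05. Adjusted p-values are from edgeR unless DESeq2 is named. Log2 CPM used a prior count of 2. Errors of folds are standard errors. The steps were tested on simulated data. Alternatives were upper-quartile scaling, no filter, DESeq2 1.42.0, a replicate block, leaving out single libraries and, chosen after seeing the data, leaving out both mir1180-3p libraries. Named were all called members, the 5 highest and 5 lowest by CPM, the widest and narrowest ranges, paralogs, FAU, and up to 4 called genes per comparison of other lists. The other members given beside the platforms, and those lying outside the range of the 12 libraries, were chosen after their values were seen. The members and lists were chosen with earlier results of these data known. Some genes that the rule names are not reported here.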

Additional observations from a re-analysis of the deposited data

How the results depend on the processing

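No direction turned under any alternative among the 44 folds of called ribosomal protein genes that were recomputed. The counts of called ribosomal protein genes that moved by over 1.5 times were, for mir1260a-5p, 2 with upper-quartile scaling, 2 without a filter, 2 with the replicate block and 4 with DESeq2, against 1; for mir1271-5p 0 with upper-quartile scaling, against 1; for mir1301-3p 23 with upper-quartile scaling, against 15; for mir3613-5p 1 with DESeq2, against 0; for mir550-3p 0 with upper-quartile scaling, 7 with DESeq2 and 1 without the mir1180-3p libraries, against 2; and for mir124-3p Solid 19 with DESeq2 and 3 without the mir1180-3p libraries, against 7. The causes were not tested. Leaving out single libraries gave 3 to 8 calls for mir1180-3p, 0 to 2 for mir1260a-5p, 0 to 2 for mir1271-5p, 0 to 18 for mir1301-3p, 0 to 0 for mir3613-5p, 0 to 6 for mir550-3p, 2 to 10 for mir124-3p Solid and 57 to 68 for Illumina against Solid. The share of counts without the members called higher in mir1180-3p was 7.19% in mir1180-3p and 6.72% in mir124-3p Solid. A wider set left out the paralogs together with RPL3, RPL4, RPL5, RPL6, RPL7, RPL8 and RPL9, and gave 15.3% and 6.40%. The paralogs alone were not left out. The replicate numbers were not taken to pair the samples, as the labels state no shared batch. Over 15 pairs of miRNAs the differences between replicates correlated at −0.14 to 0.36, a range that depends on the numbering and does not settle whether they pair. The 6 above 0.1 were all those among mir1260a-5p, mir1271-5p, mir1301-3p and mir3613-5p (0.20 to 0.36). The correlations with mir1180-3p turn sign if its libraries are swapped, and its sample numbers run against its replicate order. The replicate block was not refitted with them swapped. The replicate block gave 6, 2, 1, 17, 0, 3 and 7 calls for the 6 miRNAs in the order above and mir124-3p Solid, and the calls of RPL21 in mir1180-3p (edgeR adjusted p = 0.052) and RPL19 in mir124-3p Solid (0.0564) ended under it. Depth limits the low paralogs, RPL3L and RPL10L, most.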
